A study of Mus musculus with 48 samples.

Results

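The 16 libraries described here hold the MHCIIlo cells of a study of mouse colon tumours, 8 libraries of Ly6Clo MHCIIlo cells and 8 of Ly6Chi MHCIIlo cells, out of 48 libraries in all. They were chosen by their titles, which name the level of the surface protein Ly6C, the level of MHC class II, the genotype and a replicate number. Each population had 4 libraries from mice labelled ko and 4 from mice labelled ctrl. The series title and design name Ccl17, a chemokine made by dendritic cells, as the inactivated gene. All 16 samples were sorted immune cells from tumours induced with the carcinogen azoxymethane (AOM) and dextran sulfate sodium (DSS), an irritant of the colon, and all are labelled day 85. How Ccl17 was inactivated, which animals shared a cage and whether animals were pooled is not stated per sample. In bulk libraries such as these, fewer cells of a type and less RNA per cell cannot be told apart.

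Ly6C marks the classical monocytes of mouse blood, which leave the bone marrow through the receptor CCR2 and enter inflamed gut and tumour tissue. In the gut wall such monocytes lose Ly6C as they mature, gain MHC class II and take on macrophage functions, among them uptake of dying cells, lysosomal digestion, complement C1q production and remodelling of matrix. The MHCIIlo gates hold the cells at either end of the Ly6C scale that display little MHC class II.

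Levels are given in CPM, each count relative to its library's total after scaling by TMM, a normalization that evens out library composition. The Ly6Clo MHCIIlo libraries held 139098 to 248593 counts (median 194312), and the Ly6Chi MHCIIlo libraries 222560 to 388815 counts (median 304202). Genes with a count numbered 10646 to 11887 in Ly6Clo MHCIIlo libraries and 10933 to 12309 in Ly6Chi MHCIIlo libraries. A count of 0 allowed up to 7.72 to 21.6 CPM of a library's total (3 counts), which covers counting error only. The first principal component held 45.3% of the variance and separated the populations. Among the libraries that stood apart, Ly6Clo MHCIIlo ctrl replicate 2 had the lowest median correlation with its own population (0.871) and the highest epithelial marker sum of the 16, and Ly6Clo MHCIIlo ko replicate 3 had the highest neutrophil and mast cell marker sums. Calls that ended without both are named as such. Leaving out both was not planned and was chosen after their values were seen.

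Of 3417 genes tested, 623 were higher in Ly6Clo MHCIIlo than in Ly6Chi MHCIIlo cells (18.2%) and 729 were lower (21.3%), so 39.6% of the transcripts that passed the count filter differed. Every count of list members below is to be read beside these shares. A gene counted as different at an adjusted p under 0.05 by edgeR's quasi-likelihood test with Benjamini-Hochberg adjustment, the source of every adjusted p here unless another test is named. By that rule and a log2 fold change (Ly6Clo over Ly6Chi) past 1 in size, 232 genes were higher (6.79%) and 222 were lower (6.5%). The 8 Ly6Clo MHCIIlo libraries all lay above all 8 Ly6Chi MHCIIlo libraries for 187 genes (5.47%) and all below them for 202 genes (5.91%). The median log2 fold change of all tested genes was 0.00151. Without both libraries that stood apart 1358 genes were called, 1196 of them among the 1352 called with all libraries, and 0 of the 1352 turned sign. The fits share all other libraries, so the kept signs are no separate evidence. Replicates are not stated to be separate animals, so each p measures the spread between these samples.

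**Figure D1:**
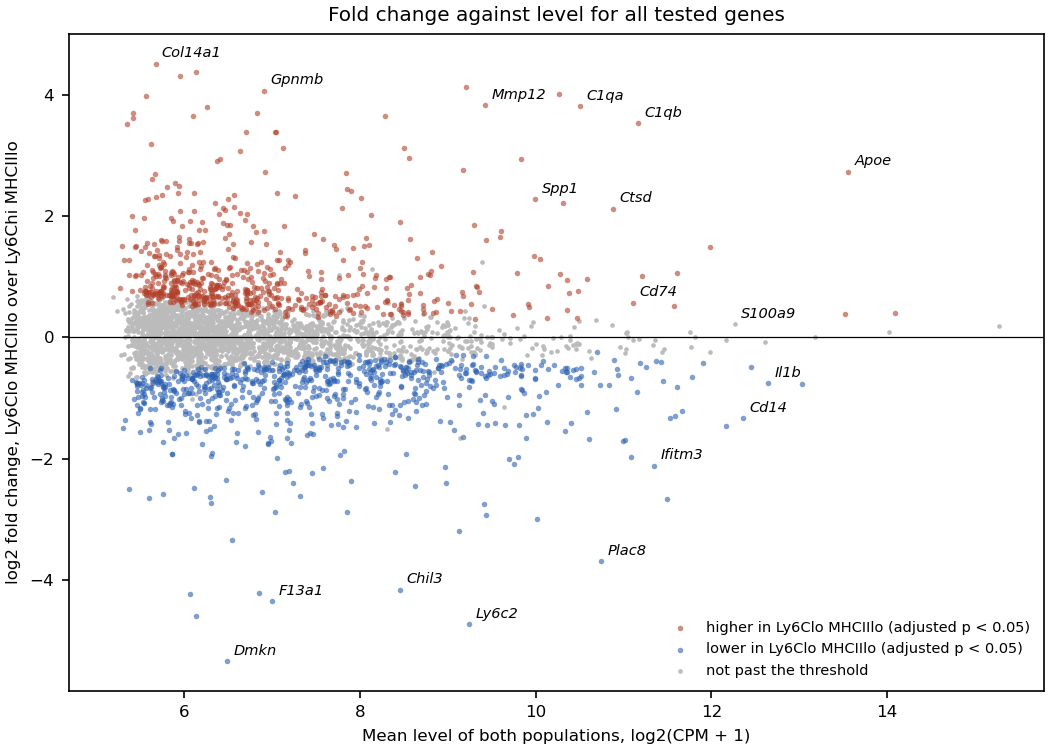
Each point is 1 of the 3417 tested genes, with its mean level over both populations on the horizontal axis, log2(CPM + 1), and its log2 fold change, Ly6Clo MHCIIlo over Ly6Chi MHCIIlo, on the vertical axis. The 623 red genes were higher and the 729 blue genes lower in Ly6Clo MHCIIlo cells, with Apoe, C1qb and C1qa among the abundant genes far above 0 and Plac8, Ly6c2 and Ifitm3 among those far below it.

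The genes behind the sort were read first. Ly6c2, which encodes Ly6C, had 19.6 to 64.3 CPM (median 46.8) in Ly6Clo MHCIIlo libraries, against 924 to 1613 CPM (median 1097) in Ly6Chi MHCIIlo libraries. The ranges did not overlap, and the log2 fold change was -4.73 (SE 0.19, adjusted p = 5.51e-15). Its near-identical neighbour Ly6c1 had 0 counts in the 8 Ly6Clo MHCIIlo libraries and 9 counts over the 8 Ly6Chi MHCIIlo libraries and was not tested, and the counting could split reads between them. Cd74, the chaperone of MHC class II, had 1952 to 3416 CPM (median 2619) in Ly6Clo MHCIIlo libraries, against 1098 to 2299 CPM (median 1812) in Ly6Chi MHCIIlo libraries. It was modestly higher in Ly6Clo MHCIIlo cells with overlapping ranges, at a log2 fold change of 0.57 (SE 0.16, adjusted p = 0.00692). Cd74 passed in ctrl libraries alone (0.71, adjusted p = 0.0189) and did not pass in ko libraries alone (0.45, adjusted p = 0.154). Other genes of MHC class II chains are not analysed here. Ccl17 was too sparse to check the genotype labels, with 6 counts over the Ly6Clo MHCIIlo libraries and 19 over the Ly6Chi MHCIIlo libraries.

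Promoter windows are shown for a pair of genes that mark the Ly6Chi side, Ly6c2 (chr15:75111922-75112221, minus strand) and F13a1 (chr13:37050195-37050494, minus strand), and for C1qc (chr4:136892865-136893164, minus strand) from the Ly6Clo side. Each is the 300-base window around an annotated transcript start in RefSeq on GRCm38.p6, written along the gene's strand. Capitals mark GAGGAAG, or CTTCCTC where it lies on the other strand, a core bound by the myeloid factor PU.1.
Ly6c2: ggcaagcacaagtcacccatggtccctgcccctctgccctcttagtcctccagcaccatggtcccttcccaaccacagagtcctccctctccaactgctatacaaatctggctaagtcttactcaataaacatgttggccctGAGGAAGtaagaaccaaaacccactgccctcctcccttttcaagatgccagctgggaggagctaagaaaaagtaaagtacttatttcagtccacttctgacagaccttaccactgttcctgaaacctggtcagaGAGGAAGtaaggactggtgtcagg
F13a1: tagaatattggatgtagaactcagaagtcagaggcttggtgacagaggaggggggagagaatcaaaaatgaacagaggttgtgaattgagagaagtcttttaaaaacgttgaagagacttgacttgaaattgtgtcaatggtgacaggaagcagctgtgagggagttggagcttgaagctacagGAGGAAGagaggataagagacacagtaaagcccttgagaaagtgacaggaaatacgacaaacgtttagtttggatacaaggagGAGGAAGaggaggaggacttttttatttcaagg
C1qc: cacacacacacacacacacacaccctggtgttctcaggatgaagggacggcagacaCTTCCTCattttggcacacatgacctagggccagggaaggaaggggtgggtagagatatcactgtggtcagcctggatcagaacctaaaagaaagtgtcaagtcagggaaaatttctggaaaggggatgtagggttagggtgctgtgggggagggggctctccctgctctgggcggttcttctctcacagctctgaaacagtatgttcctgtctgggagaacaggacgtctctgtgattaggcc
Ly6c2 and F13a1 held 2 matches each in these windows and C1qc held 1. Among the genes named below, 5 of 16 windows of genes lower in Ly6Clo MHCIIlo cells (31.2%) and 4 of 9 windows of genes higher there (44.4%) held a match, beside 13.6% of all 32851 windows. Windows of 1 gene can overlap, and those of Ly6c2 hold the same matches. Of 11 lower genes with a window, only Ly6c2, F13a1 and Ltb4r1 had a match. Of 8 higher genes with a window, Igf1, C1qc, Mmp12 and Ptgs1 had one. A match describes letters in a window only.

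Classical monocyte genes were lower in Ly6Clo MHCIIlo cells: of 13 members tested, 12 were lower and 0 were higher, with a median log2 fold change of -2.23. Ly6c2, whose protein the sort used, is among these 12. F13a1, a transglutaminase that cross-links fibrin and is a usual monocyte marker, had 3.92 to 17.2 CPM (median 12.9) in Ly6Clo MHCIIlo libraries, against 165 to 370 CPM (median 243) in Ly6Chi MHCIIlo libraries (-4.35, SE 0.24, adjusted p = 1.08e-12). Vcan, a large matrix proteoglycan, had 0 to 23.1 CPM (median 13.7) in Ly6Clo MHCIIlo libraries, against 120 to 370 CPM (median 190) in Ly6Chi MHCIIlo libraries (-4.21, SE 0.32, adjusted p = 2.13e-10). For both genes every Ly6Clo MHCIIlo library lay well below every Ly6Chi MHCIIlo library. Plac8, an abundant transcript of Ly6C-positive monocytes, had 142 to 447 CPM (median 224) in Ly6Clo MHCIIlo libraries, against 2549 to 4981 CPM (median 2972) in Ly6Chi MHCIIlo libraries (-3.69, SE 0.21, adjusted p = 9.44e-13). Chil3, a chitinase-like secreted protein, had 5.77 to 91.5 CPM (median 32.3) in Ly6Clo MHCIIlo libraries, against 239.5 to 1952 CPM (median 532) in Ly6Chi MHCIIlo libraries (-4.16, SE 0.39, adjusted p = 5.76e-09). Ms4a4c, a membrane-spanning protein, was also without overlap, with a median of 16.4 CPM in Ly6Clo MHCIIlo libraries and 159 CPM in Ly6Chi MHCIIlo libraries (-3.34, SE 0.30).

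Ccr2, the receptor that brings monocytes into tissue, was likewise separate between the populations. It had 28.4 to 102 CPM (median 56.5) in Ly6Clo MHCIIlo libraries, against 227 to 347 CPM (median 283) in Ly6Chi MHCIIlo libraries (-2.23, SE 0.20, adjusted p = 2.82e-09). Fn1, fibronectin, was the list member that did not pass, with medians of 1201 CPM in Ly6Clo MHCIIlo and 1366 CPM in Ly6Chi MHCIIlo libraries (-0.14, adjusted p = 0.325). The summed level of all 13 markers, Ly6c2 included, ran from 2050 to 2957 CPM in Ly6Clo MHCIIlo libraries and from 7683 to 11206 CPM in Ly6Chi MHCIIlo libraries. Of the 6 tested genes of patrolling monocytes, which are Ly6C-low in blood, 1 was higher and 2 were lower (1 without both libraries that stood apart), with a median of -0.18. That is 16.7% higher and 33.3% lower, beside 18.2% and 21.3% of all tested genes. Of these 6 genes, 1 was lower when any one of 9 libraries was left out, Ly6Clo MHCIIlo ctrl and ko replicates 2, 3 and 4, Ly6Chi MHCIIlo ctrl replicates 1 and 3 and ko replicate 1.

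The lowest fold of all named genes was that of Dmkn, dermokine, a secreted protein best known from skin. It had 0 to 9.76 CPM (median 4.43) in Ly6Clo MHCIIlo libraries, 3 of them at 0, against 89.0 to 245 CPM (median 172) in Ly6Chi MHCIIlo libraries (-5.33, SE 0.34, adjusted p = 9.55e-12). It rests on 6 counts in Ly6Clo MHCIIlo and 412 in Ly6Chi MHCIIlo libraries. Adora2b, an adenosine receptor, had 11.5 to 66.7 CPM (median 27.7) in Ly6Clo MHCIIlo libraries, against 120 to 338 CPM (median 229) in Ly6Chi MHCIIlo libraries (-2.88, SE 0.27, adjusted p = 6.56e-09). Lyz1, a lysozyme that Paneth cells and myeloid cells make, differed with wide overlap, at 9.89 to 137 CPM (median 42.4) in Ly6Clo MHCIIlo and 23.0 to 1350 CPM (median 88.7) in Ly6Chi MHCIIlo libraries (-2.89, SE 0.78, adjusted p = 0.0046), and it did not pass in ctrl libraries alone (adjusted p = 0.0784). Reads of Lyz1 can be shared with its close copy Lyz2.

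**Figure D2:**
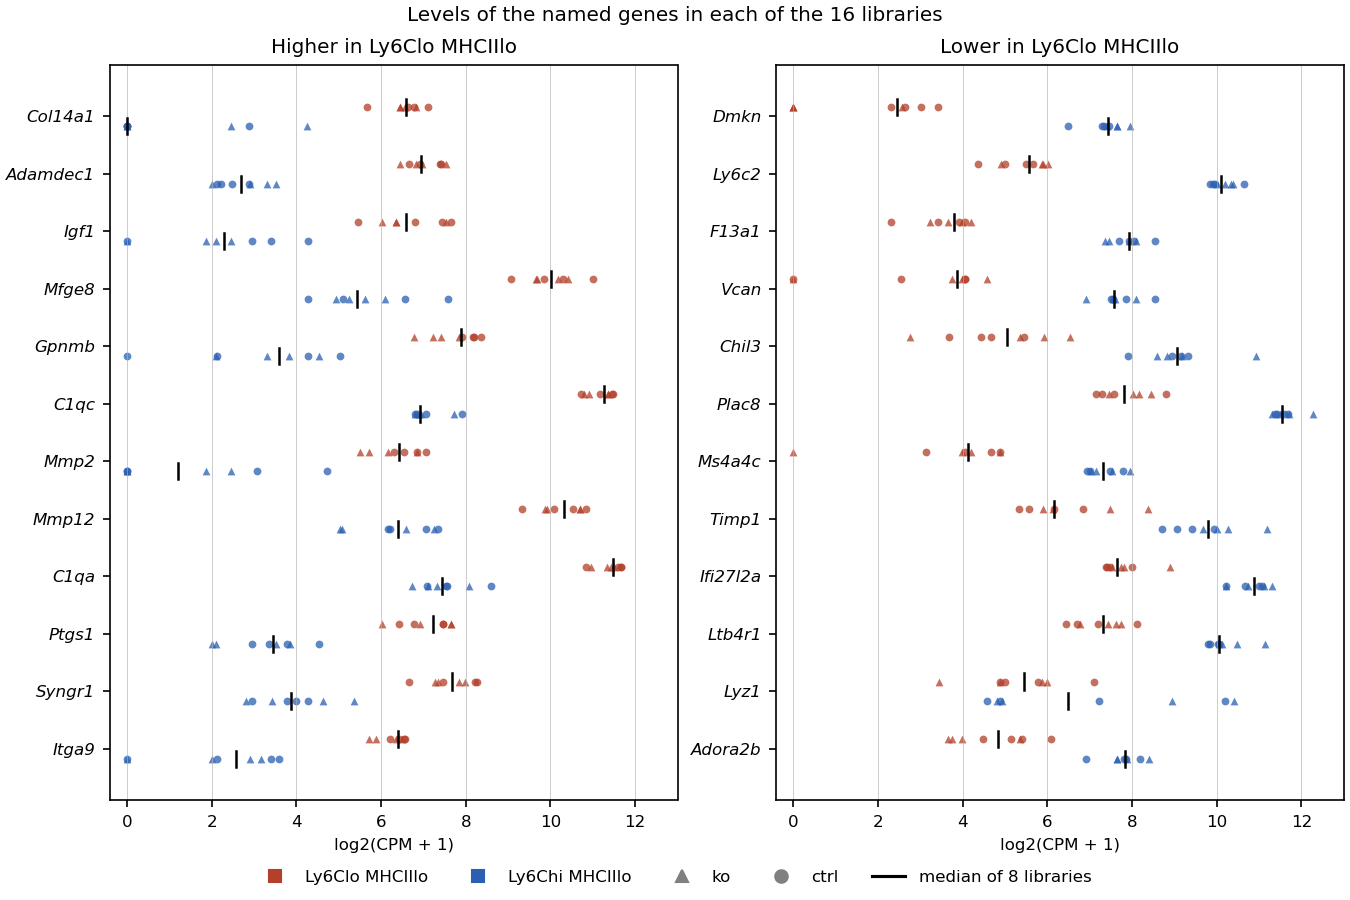
Levels, log2(CPM + 1) on the horizontal axis, of the 12 genes named per direction in each of the 16 libraries, with Ly6Clo MHCIIlo (red) above Ly6Chi MHCIIlo (blue) in each row, triangles for ko and circles for ctrl libraries and a bar at the median of 8. The libraries of the populations are apart in the row of each gene except Lyz1.

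The C1q chains and other macrophage genes were higher in Ly6Clo MHCIIlo cells. C1qa, C1qb and C1qc encode the chains of C1q, which starts the classical complement pathway and which tissue macrophages produce. C1qa had 1838 to 3273 CPM (median 2832) in Ly6Clo MHCIIlo libraries, against 105 to 385 CPM (median 172) in Ly6Chi MHCIIlo libraries (3.81, SE 0.21, adjusted p = 8.83e-13). C1qb had 2555 to 5626 CPM (median 4473) in Ly6Clo MHCIIlo libraries, against 171 to 671 CPM (median 347) in Ly6Chi MHCIIlo libraries (3.52, SE 0.21, adjusted p = 2.69e-12). No library of either population reached the range of the other for these chains. C1qc had 1675 to 2845 CPM (median 2465) in Ly6Clo MHCIIlo libraries, against 111 to 242 CPM (median 120) in Ly6Chi MHCIIlo libraries (4.005, SE 0.18, adjusted p = 4.64e-14). Of 8 tested members of the resident macrophage list 7 were higher and 0 were lower, with a median of 1.46. Sepp1, selenoprotein P (Selenop), was among them at medians of 343 CPM in Ly6Clo MHCIIlo and 126 CPM in Ly6Chi MHCIIlo libraries (1.47, SE 0.20). The list has 16 members in the table, and the count filter keeps a gene that 1 population alone expresses, so tested members are not all members. Cd163 and Timd4, markers of long-lived resident macrophages, were at 0 in all 8 Ly6Clo MHCIIlo libraries, and Cd209f was at 0 in all 8 Ly6Chi MHCIIlo libraries.

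Genes reported for macrophages of tumours were higher as well. Of 13 tested, 11 were higher and 0 were lower (median 1.40). Spp1, osteopontin, had 1453 to 2556 CPM (median 1543) in Ly6Clo MHCIIlo libraries, against 235 to 544 CPM (median 344) in Ly6Chi MHCIIlo libraries (2.28, SE 0.16, adjusted p = 2.9e-11). Gpnmb, a glycoprotein of lysosome-rich macrophages, had 109 to 330 CPM (median 235) in Ly6Clo MHCIIlo libraries, against 0 to 31.8 CPM (median 11.1) in Ly6Chi MHCIIlo libraries (4.06, SE 0.30, adjusted p = 1.04e-10). Neither gene's ranges overlapped. Apoe, the apolipoprotein that carries cholesterol out of macrophages, had 14675 to 26800 CPM (median 22318) in Ly6Clo MHCIIlo libraries, against 2473 to 5112 CPM (median 2957) in Ly6Chi MHCIIlo libraries (2.73, SE 0.15, adjusted p = 8.83e-13). Lgals3, galectin-3, and Vegfa, a growth factor for vessels, were the members that did not pass, with log2 fold changes of 0.09 each (adjusted p = 0.532 for Lgals3 and 0.702 for Vegfa). The summed level of the list ran from 25511 to 38527 CPM in Ly6Clo MHCIIlo and from 8332 to 10802 CPM in Ly6Chi MHCIIlo libraries. Apoe was a large part of this sum. Its median of 22318 CPM stood beside a median sum of 35306 CPM in Ly6Clo MHCIIlo libraries. In Ly6Chi MHCIIlo libraries its 2957 CPM stood beside 9555 CPM.

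The genes with the largest folds upward included secreted and surface proteins outside these lists. Col14a1, a collagen, had 49.7 to 137 CPM (median 96.0) in Ly6Clo MHCIIlo libraries, against 0 to 17.96 CPM (median 0) in Ly6Chi MHCIIlo libraries, 5 of which were at 0 (4.51, SE 0.43, adjusted p = 7.45e-09). The summed level of the 7 fibroblast genes ran from 0 to 42.6 CPM in Ly6Clo MHCIIlo and from 0 to 185 CPM in Ly6Chi MHCIIlo libraries, with Pdgfra at 0 in all 16, and none of them passed the count filter. Adamdec1, a metalloprotease-like protein of gut macrophages, had 86.5 to 184 CPM (median 122) in Ly6Clo MHCIIlo libraries, against 2.99 to 10.6 CPM (median 5.48) in Ly6Chi MHCIIlo libraries (4.37, SE 0.28, adjusted p = 8.69e-12). Igf1, a growth factor, had 42.6 to 200.1 CPM (median 95.3) in Ly6Clo MHCIIlo libraries, against 0 to 18.5 CPM (median 3.86) in Ly6Chi MHCIIlo libraries (4.30, SE 0.42, adjusted p = 1.08e-08). No library of 1 population reached the range of the other for any of these genes. Ptgs1, the constitutive cyclooxygenase, had medians of 148 CPM in Ly6Clo MHCIIlo and 9.88 CPM in Ly6Chi MHCIIlo libraries (3.80, SE 0.32). Syngr1, a vesicle protein, had medians of 203 CPM in Ly6Clo MHCIIlo and 13.8 CPM in Ly6Chi MHCIIlo libraries (3.70, SE 0.30). Itga9, an integrin chain, had medians of 82.9 CPM in Ly6Clo MHCIIlo and 4.95 CPM in Ly6Chi MHCIIlo libraries (3.70, SE 0.31).

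Genes for binding and engulfing dying cells and lipoproteins moved mostly upward. Of 10 tested genes of uptake and scavenging, 7 were higher and 2 were lower (median 2.06). Mfge8, a bridge between phosphatidylserine on dying cells and integrins, had 539 to 2044 CPM (median 1041) in Ly6Clo MHCIIlo libraries, against 18.4 to 191 CPM (median 42.4) in Ly6Chi MHCIIlo libraries (4.12, SE 0.33, adjusted p = 4.77e-10). Axl, a receptor tyrosine kinase that recognizes dying cells, had 92.3 to 346 CPM (median 246) in Ly6Clo MHCIIlo libraries, against 8.91 to 41.3 CPM (median 20.7) in Ly6Chi MHCIIlo libraries (3.39, SE 0.26, adjusted p = 2.41e-10). Cd36, a scavenger receptor for oxidized lipids, had 49.7 to 93.5 CPM (median 77.4) in Ly6Clo MHCIIlo libraries, against 2.99 to 8.91 CPM (median 6.45) in Ly6Chi MHCIIlo libraries (3.52, SE 0.26, adjusted p = 1.05e-10). All 3 genes separated the libraries completely. Stab1, another scavenger receptor (2.44, SE 0.22), and Clec4n, the fungal receptor dectin-2 (1.85, SE 0.14), were also higher without overlap. The members that fell were Tgm2, a transglutaminase, at medians of 923 CPM in Ly6Clo MHCIIlo and 2861 CPM in Ly6Chi MHCIIlo libraries (-1.68, SE 0.16), and Scarb1, a receptor for high-density lipoprotein (-1.52, SE 0.31). Lrp1, which takes up many ligands, did not pass (-0.18, adjusted p = 0.405).

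Lysosomal genes were higher as a group in Ly6Clo MHCIIlo cells, 18 of 23 tested, with 1 lower and a median of 1.05. Ctsd, the aspartic protease cathepsin D, had 2418 to 3823 CPM (median 3231) in Ly6Clo MHCIIlo libraries, against 575 to 992 CPM (median 653) in Ly6Chi MHCIIlo libraries (2.12, SE 0.13, adjusted p = 6.38e-12). Lgmn, the asparagine-specific protease legumain, had 951 to 1352 CPM (median 1242) in Ly6Clo MHCIIlo libraries, against 274 to 424 CPM (median 376) in Ly6Chi MHCIIlo libraries (1.76, SE 0.13, adjusted p = 6.89e-11). These proteases separated all libraries, as did the cysteine protease Ctsl (1.63, SE 0.15) and Grn, progranulin (1.34, SE 0.12). Cd63, a tetraspanin of lysosomes, had medians of 1669 CPM in Ly6Clo MHCIIlo and 214 CPM in Ly6Chi MHCIIlo libraries (2.94, SE 0.17), and the row Cd63-ps, a pseudogene that can share its reads, had medians of 641 CPM in Ly6Clo MHCIIlo and 72.0 CPM in Ly6Chi MHCIIlo libraries. Npc2, which hands cholesterol out of the lysosome, was the member that fell, with medians of 1070 CPM in Ly6Clo MHCIIlo and 1461 CPM in Ly6Chi MHCIIlo libraries (-0.50, SE 0.11, adjusted p = 0.000759). Psap, a precursor of enzyme activators (0.25, adjusted p = 0.0825), and Cd68, a lysosomal glycoprotein used as a macrophage marker (0.32, adjusted p = 0.0717), did not pass. The summed level of the list ran from 20203 to 28605 CPM in Ly6Clo MHCIIlo and from 10927 to 14453 CPM in Ly6Chi MHCIIlo libraries.

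Windows of a pair of these protease genes are shown because lysosomal genes are known to share the motif CACGTG, which is its own reverse complement and is bound by the factors TFEB and TFE3. They are Ctsd (chr7:142387778-142388077, minus strand) and Ctsl (chr13:64370471-64370770, minus strand), from RefSeq on GRCm38.p6, with the motif in capitals.
Ctsd: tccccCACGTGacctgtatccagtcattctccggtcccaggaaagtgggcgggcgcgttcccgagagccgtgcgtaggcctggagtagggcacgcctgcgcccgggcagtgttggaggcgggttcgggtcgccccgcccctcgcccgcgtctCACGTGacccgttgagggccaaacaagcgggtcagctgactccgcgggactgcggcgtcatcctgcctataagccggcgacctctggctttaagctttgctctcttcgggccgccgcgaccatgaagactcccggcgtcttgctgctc
Ctsl: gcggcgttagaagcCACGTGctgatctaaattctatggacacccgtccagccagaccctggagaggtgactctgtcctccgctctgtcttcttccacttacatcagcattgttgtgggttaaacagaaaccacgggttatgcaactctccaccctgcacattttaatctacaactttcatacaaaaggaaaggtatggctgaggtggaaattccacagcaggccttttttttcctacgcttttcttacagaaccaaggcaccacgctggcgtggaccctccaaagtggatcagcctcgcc
The Ctsd window held 2 matches and the Ctsl window held 1. CACGTG stood in 7 of 22 windows of the lysosome list (31.8%), beside 7.15% of all windows, and 6 of the 14 genes of that list that passed the test and have a window held it in some window.

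Of 10 tested lipid genes, 5 were higher (50%) and 1 was lower (10%), with a median of 0.36. Among all tested genes 18.2% were higher and 21.3% lower, so the share of lower lipid genes was under that of all. Beside Apoe, the members that rose were Lipa, the acid lipase of lysosomes, at medians of 132 CPM in Ly6Clo MHCIIlo and 30.6 CPM in Ly6Chi MHCIIlo libraries (2.02, SE 0.27), the cholesterol exporter Abca1 (0.74, SE 0.15), the fatty acid carrier Fabp5 (0.79, SE 0.18) and the lipid droplet protein Plin2 (0.49, SE 0.14), whose adjusted p was 0.00808 and 0.202 with no count filter. Soat1, which esterifies cholesterol, did not pass (-0.34, adjusted p = 0.133).

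Genes of matrix and its proteases moved in both directions, 7 of 15 tested upward and 5 downward (median 0.10, or 0.00402 without both libraries that stood apart). The proteases were largely on the Ly6Clo side. Mmp12, the elastase of macrophages, had 644 to 1834 CPM (median 1279) in Ly6Clo MHCIIlo libraries, against 31.7 to 161 CPM (median 84.0) in Ly6Chi MHCIIlo libraries (3.82, SE 0.29, adjusted p = 1.72e-10). Mmp9, a gelatinase, had 468 to 1735 CPM (median 942) in Ly6Clo MHCIIlo libraries, against 77.3 to 270 CPM (median 127) in Ly6Chi MHCIIlo libraries (2.76, SE 0.27, adjusted p = 9.04e-09). It is also a neutrophil gene and is read again with those. Mmp13, a collagenase (2.73, SE 0.33), and Plau, the urokinase that activates plasmin (1.83, SE 0.22), were higher without overlap too. So was Mmp2, a gelatinase outside this list that was named for its large fold (3.98, SE 0.43).

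The inhibitors of these proteases went opposite ways. Timp2 was higher, with 178 to 369 CPM (median 242) in Ly6Clo MHCIIlo libraries, against 8.98 to 40.1 CPM (median 32.0) in Ly6Chi MHCIIlo libraries (3.11, SE 0.21, adjusted p = 2.86e-11). Timp1 was lower, with 39.0 to 333 CPM (median 69.9) in Ly6Clo MHCIIlo libraries, against 416 to 2324 CPM (median 894) in Ly6Chi MHCIIlo libraries (-3.19, SE 0.31, adjusted p = 9.04e-09). Neither pair of ranges overlapped. Thbs1, thrombospondin-1, an adhesive matrix protein, was lower at medians of 783 CPM in Ly6Clo MHCIIlo and 3504 CPM in Ly6Chi MHCIIlo libraries (-1.96, SE 0.17). Plaur, the urokinase receptor, was lower as well (-1.03, SE 0.14), opposite to its ligand Plau, and so was the matrix protein Tgfbi (-0.42, SE 0.11).

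Inflammatory cytokine and NF-kB target genes were mostly lower. Of 14 tested, 1 was higher and 9 were lower (median -0.64). Osm, oncostatin M, a cytokine that acts on stromal cells, had 519 to 667 CPM (median 631) in Ly6Clo MHCIIlo libraries, against 1041 to 2090 CPM (median 1746) in Ly6Chi MHCIIlo libraries (-1.40, SE 0.13, adjusted p = 7.99e-09). Il1b, interleukin-1 beta, had 3538 to 6919 CPM (median 4260) in Ly6Clo MHCIIlo libraries, against 7219 to 9687 CPM (median 7782) in Ly6Chi MHCIIlo libraries (-0.75, SE 0.14, adjusted p = 0.00011). Both were separate between the populations, while Il1b stayed among the abundant transcripts of each. Nfkbia, the inhibitor that NF-kB induces, was lower without overlap (-1.21, SE 0.13), and Cxcl2, a neutrophil attractant, was lower with overlap, at medians of 5973 CPM in Ly6Clo MHCIIlo and 11017 CPM in Ly6Chi MHCIIlo libraries (-0.77, SE 0.12). Ptgs2, the inducible cyclooxygenase, was lower (-0.95, SE 0.22, adjusted p = 0.00154), a call that ended with all 8 groups of the series in 1 fit (adjusted p = 0.062). Cxcl1, the close relative of Cxcl2, was the member that rose, with 294 to 525 CPM (median 360) in Ly6Clo MHCIIlo libraries, against 162 to 365 CPM (median 226) in Ly6Chi MHCIIlo libraries (0.62, SE 0.16, adjusted p = 0.00392). That call also ended in the fit of 8 groups (adjusted p = 0.299). The chemokines Ccl3 and Ccl4 did not pass (-0.05, adjusted p = 0.798, and -0.03, adjusted p = 0.894).

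Of 6 tested receptors and signalling genes that sense bacteria, 5 were lower and 0 were higher (median -0.75), with 1 higher without Ly6Clo MHCIIlo ctrl replicate 3. Cd14, which passes lipopolysaccharide to TLR4, had 2346 to 4197 CPM (median 2859) in Ly6Clo MHCIIlo libraries, against 5048 to 10440 CPM (median 7632) in Ly6Chi MHCIIlo libraries (-1.33, SE 0.12, adjusted p = 2.11e-09). Clec4e, a receptor for mycobacterial glycolipid, had medians of 364 CPM in Ly6Clo MHCIIlo and 1043 CPM in Ly6Chi MHCIIlo libraries (-1.44, SE 0.14). These and Tlr2, a receptor for bacterial lipoproteins (-0.71, SE 0.14), had no overlap. Irak3, a brake on this signalling, was lower (-0.79, SE 0.27, adjusted p = 0.0231), with an adjusted p of 0.0641 without Ly6Clo MHCIIlo ctrl replicate 3, 0.0573 without Ly6Chi MHCIIlo ctrl replicate 3 and 0.0558 without Ly6Clo MHCIIlo ctrl replicate 2. Clec7a, the beta-glucan receptor dectin-1, did not pass (0.08, adjusted p = 0.773).

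Of 10 tested macrophage chemokines 2 were higher and 2 were lower (median -0.30), shares close to the 18.2% and 21.3% of all tested genes. Ccl12 had 71.0 to 333 CPM (median 168) in Ly6Clo MHCIIlo libraries, against 4.61 to 55.6 CPM (median 19.1) in Ly6Chi MHCIIlo libraries (3.07, SE 0.32, adjusted p = 3.86e-08). Ccl2, its neighbour and the main ligand of CCR2, had 109 to 327 CPM (median 174) in Ly6Clo MHCIIlo libraries, against 218 to 636 CPM (median 467) in Ly6Chi MHCIIlo libraries (-1.26, SE 0.22, adjusted p = 6.61e-05). Thus these related CCR2 ligands differed in opposite directions, Ccl12 without and Ccl2 with overlap. Ccl8 was higher (1.34, SE 0.33) and Cxcl10, an interferon-induced attractant of T cells, was lower (-2.14, SE 0.49), while Ccl6 (-0.09, adjusted p = 0.65) and Ccl24 (-0.47, adjusted p = 0.178) did not pass. Of 11 tested chemoattractant receptors 2 were higher and 6 were lower (median -0.45), and 3 were lower without Ly6Clo MHCIIlo ko replicate 1 or without Ly6Chi MHCIIlo ctrl replicate 3. Ltb4r1, the receptor for leukotriene B4, had 86.3 to 277 CPM (median 159) in Ly6Clo MHCIIlo libraries, against 887 to 2271 CPM (median 1058) in Ly6Chi MHCIIlo libraries (-2.92, SE 0.21, adjusted p = 7.78e-11). C3ar1, the receptor for complement C3a, was higher without overlap, with medians of 159 CPM in Ly6Clo MHCIIlo and 50.9 CPM in Ly6Chi MHCIIlo libraries (1.58, SE 0.20). Cx3cr1, the fractalkine receptor of gut macrophages, was higher with overlap (0.82, SE 0.25, adjusted p = 0.012), Cxcr4 was lower (-0.53, SE 0.16, adjusted p = 0.0118), and the C5a receptor C5ar1 did not pass (0.43, adjusted p = 0.0592).

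Interferon response genes were lower, 8 of 10 tested, with 1 higher and a median of -1.67. Ifi27l2a, an interferon-induced mitochondrial protein, had 166 to 477 CPM (median 199) in Ly6Clo MHCIIlo libraries, against 1193 to 2532 CPM (median 1876) in Ly6Chi MHCIIlo libraries (-2.998, SE 0.20, adjusted p = 2.7e-11). Ifitm3, which hinders virus entry, had 670 to 1343 CPM (median 991) in Ly6Clo MHCIIlo libraries, against 3152 to 5610 CPM (median 4152) in Ly6Chi MHCIIlo libraries (-2.11, SE 0.15, adjusted p = 6.6e-11). Their ranges were far apart, and reads of Ifitm3 can be shared with its close copies. Zbp1, a sensor of foreign nucleic acid (-2.39, SE 0.29), Irf7, the factor that amplifies interferon production (-1.78, SE 0.24), and Ly6e (-1.29, SE 0.12) were lower without overlap. Bst2, tetherin, was the member that rose, with 163 to 310 CPM (median 234) in Ly6Clo MHCIIlo libraries, against 68.6 to 157 CPM (median 116) in Ly6Chi MHCIIlo libraries (1.01, SE 0.17, adjusted p = 2.83e-05).

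**Figure D3:**
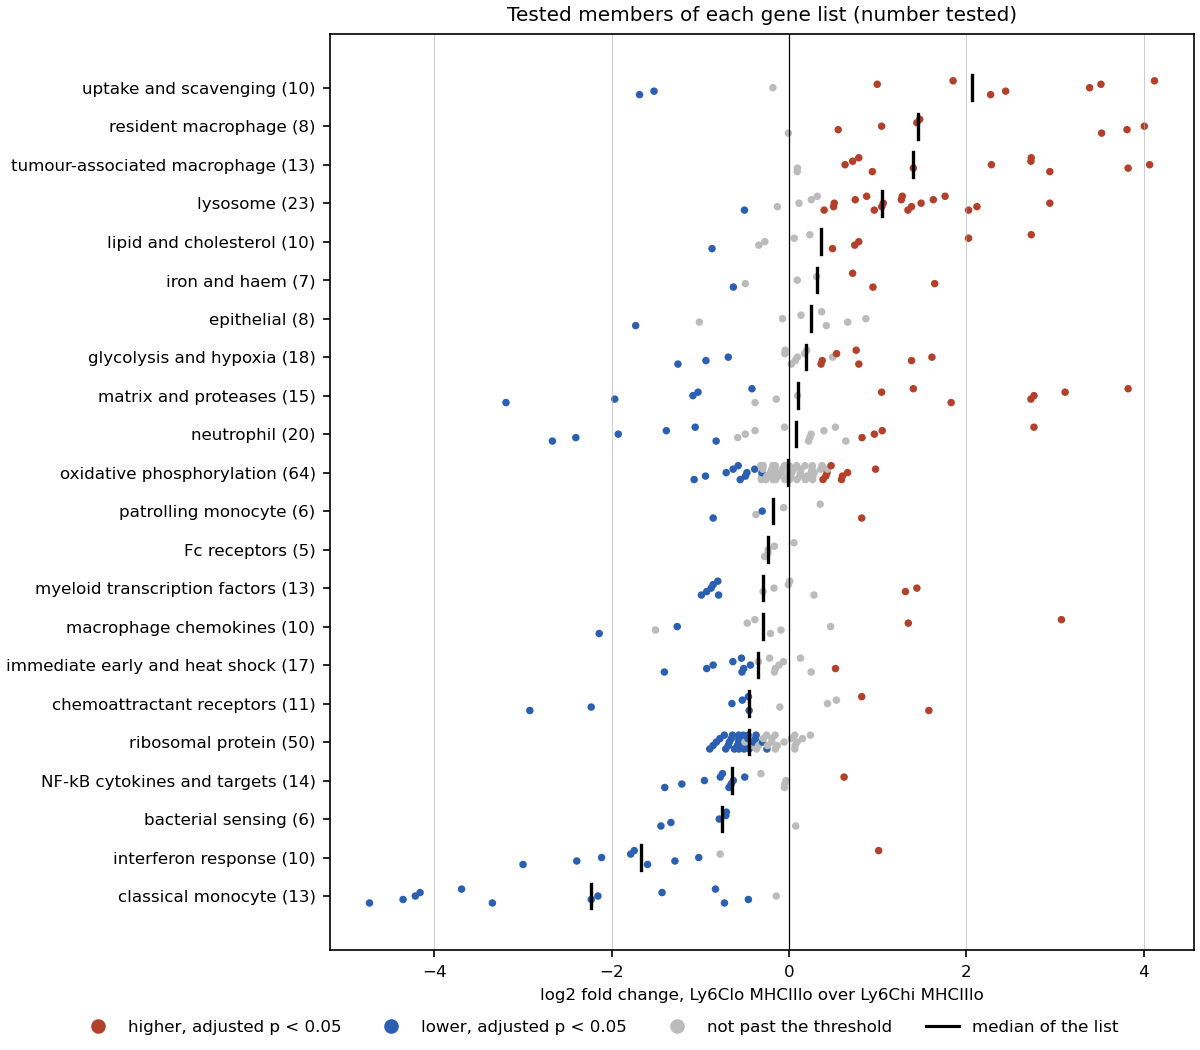
Log2 fold change, Ly6Clo MHCIIlo over Ly6Chi MHCIIlo, of every tested member of the lists with at least 5 tested members (number tested in brackets), with a black bar at each list's median. The uptake list lies highest with a median of 2.06, the lysosome list stands at 1.05, and the interferon (-1.67) and classical monocyte (-2.23) lists lie lowest.

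Among myeloid transcription factors, 2 of 13 tested were higher and 6 were lower (median -0.29, or -0.55 without both libraries that stood apart). Maf, a factor of mature macrophages, had 208 to 258 CPM (median 244) in Ly6Clo MHCIIlo libraries, against 50.4 to 151 CPM (median 74.9) in Ly6Chi MHCIIlo libraries (1.44, SE 0.17, adjusted p = 3.34e-07). Cebpa was higher too, with medians of 138 CPM in Ly6Clo MHCIIlo and 52.2 CPM in Ly6Chi MHCIIlo libraries (1.31, SE 0.21), and its relative Cebpb was lower, at medians of 1217 CPM in Ly6Clo MHCIIlo and 2147 CPM in Ly6Chi MHCIIlo libraries (-0.79, SE 0.14). Cebpa had no overlap and Cebpb did. Klf4, a factor of monocyte differentiation (-0.93, SE 0.16), Runx1 (-0.99, SE 0.17), Bhlhe40 (-0.80, SE 0.14) and Nr4a1, which patrolling monocytes require (-0.85, SE 0.16), were lower. Spi1, which encodes PU.1, did not pass (-0.17, adjusted p = 0.322). Immediate early genes, which cell isolation can also induce, were lower for 8 and higher for 1 of 17 tested (median -0.34), with 2 higher without Ly6Chi MHCIIlo ctrl replicate 2. Their list also names heat shock genes, but none of those was tested. The phosphatase genes Dusp2 (-1.40, SE 0.22) and Dusp1 (-0.63, SE 0.13) were among those lower, while Fos (-0.15, adjusted p = 0.505) and Junb (-0.16, adjusted p = 0.308) did not pass. Egr1 was the member that rose (0.52, SE 0.20, adjusted p = 0.0369). That call was lost without both libraries that stood apart (adjusted p = 0.0789) and without any of 9 single libraries, Ly6Clo MHCIIlo ctrl replicate 2 and ko replicates 1 and 2, and Ly6Chi MHCIIlo ctrl and ko replicates 1, 3 and 4, with adjusted p from 0.0518 to 0.0683.

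Metabolic lists are read beside the 18.2% higher and 21.3% lower of all tested genes. Of 18 tested genes of glycolysis and hypoxia 7 were higher and 3 were lower (median 0.19, or 0.11 without both libraries that stood apart). Mif, a cytokine and tautomerase, had 844 to 1230 CPM (median 1044) in Ly6Clo MHCIIlo libraries, against 252 to 530 CPM (median 314) in Ly6Chi MHCIIlo libraries (1.61, SE 0.15, adjusted p = 4.53e-09). The glycolytic enzyme Aldoa (0.76, SE 0.11) and the mitophagy gene Bnip3 (1.38, SE 0.27) were higher without overlap. Ndrg1, a stress-induced gene (-1.25, SE 0.26), and Pfkfb3, a regulator of glycolysis (-0.94, SE 0.23), were lower, and the pyruvate kinase Pkm did not pass (0.03, adjusted p = 0.861). The hypoxia core ACGTG stood in 18 of 31 windows of this list (58.1%), beside 19.6% of all windows. Every CACGTG holds ACGTG, so the motifs overlap. Of 7 tested genes of iron and haem 3 were higher and 1 was lower (median 0.31) in Ly6Clo MHCIIlo libraries, against 2 higher and 2 lower without both libraries that stood apart, and 2 lower without Ly6Clo MHCIIlo ko replicate 3. Blvrb, a biliverdin reductase, was higher at medians of 399.9 CPM in Ly6Clo MHCIIlo and 123 CPM in Ly6Chi MHCIIlo libraries (1.64, SE 0.16), with Ftl1, a ferritin chain (0.95, SE 0.23). Hmox1, which breaks down haem, was higher at an adjusted p of 0.0157, which was 0.0564 without both libraries that stood apart. Slc11a1, an iron exporter of phagosomes, was lower (-0.63, SE 0.14).

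Ribosomal protein genes were lower for 30 and higher for 0 of 50 tested (median -0.46). Rps9 had 1439 to 1728 CPM (median 1630) in Ly6Clo MHCIIlo libraries, against 2576 to 3410 CPM (median 2881) in Ly6Chi MHCIIlo libraries (-0.89, SE 0.09, adjusted p = 4.07e-08). Rplp0 was also lower without overlap (-0.78, SE 0.11), while Rplp1 did not pass (0.07, adjusted p = 0.629). These genes have many pseudogenes that can share reads. Genes of oxidative phosphorylation had a median of -0.01, which was 0.03 without both libraries that stood apart, with 8 of 64 tested higher, 10 lower and 46 not past the threshold. Ndufa4 (-1.07, SE 0.13) and Ndufa12 (0.98, SE 0.15) were at its ends. Of the 5 tested Fc receptor genes 0 passed in either direction, although 2 were lower without Ly6Chi MHCIIlo ctrl replicate 3 and 1 without Ly6Chi MHCIIlo ctrl replicate 4 or Ly6Clo MHCIIlo ctrl replicate 3. Fcer1g, their shared signalling chain, had medians of 3668 CPM in Ly6Clo MHCIIlo and 4309 CPM in Ly6Chi MHCIIlo libraries (-0.24, adjusted p = 0.119).

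Markers of other cell types were read in the same libraries, and their part in the results above was not tested. Neutrophil genes were abundant in both populations, with a summed level of 7843 to 37759 CPM (median 16051) over 24 genes in Ly6Clo MHCIIlo libraries and 14887 to 25837 CPM (median 18680) in Ly6Chi MHCIIlo libraries. Of 20 tested, 4 were higher (20%) and 6 were lower (30%), with a median of 0.08, beside 18.2% and 21.3% of all tested genes. Without both libraries that stood apart 3 were higher and 7 were lower (median -0.28). Without Ly6Chi MHCIIlo ko replicate 2 alone, 3 were lower. The median was 0.36 in ko and -0.32 in ctrl libraries alone. S100a8 and S100a9, the calprotectin chains, did not pass (-0.05, adjusted p = 0.899, and 0.22, adjusted p = 0.59). Slpi, a secreted protease inhibitor, was lower without overlap, with 369 to 1124 CPM (median 792) in Ly6Clo MHCIIlo and 3240 to 9514 CPM (median 4568) in Ly6Chi MHCIIlo libraries (-2.67, SE 0.21, adjusted p = 4.72e-10). Granule genes of immature neutrophils overlapped widely. Camp, a cathelicidin, was lower at an adjusted p of 0.0132, which was 0.0737 without Ly6Chi MHCIIlo ko replicate 2 and 0.0731 by DESeq2. Ngp was lower at an adjusted p of 0.0104, which was 0.0534 without the same library. Retnlg, a marker of mature neutrophils, was higher (1.05, adjusted p = 0.0142) and lost the call without Ly6Clo MHCIIlo ko replicate 3 (adjusted p = 0.0551) and in the fit of 8 groups (adjusted p = 0.115). Il1r2, the interleukin-1 decoy receptor (0.96, SE 0.22), and Hdc, which makes histamine and is not particular to neutrophils (0.82, SE 0.21), were higher with overlap.

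Markers of other cell types were uneven between libraries. B and plasma cell genes summed to 63.2 to 5138 CPM (median 95.9) in Ly6Clo MHCIIlo and 63.3 to 6171 CPM (median 409) in Ly6Chi MHCIIlo libraries, and red cell genes to 62.3 to 6847 CPM (median 1523) in Ly6Clo MHCIIlo and 37.0 to 2121 CPM (median 471) in Ly6Chi MHCIIlo libraries. Of 8 tested epithelial genes 1 was lower, the goblet cell peptide Tff3 (-1.73, SE 0.41, adjusted p = 0.00174), a call that ended in the fit of 8 groups (adjusted p = 0.0775), and the summed level ran from 137 to 2668 CPM in Ly6Clo MHCIIlo and from 270.2 to 1301 CPM in Ly6Chi MHCIIlo libraries. Of 4 tested haemoglobin genes, which are near-identical within each chain, Hbb-bt was higher (1.70, adjusted p = 0.0132), with an adjusted p of 0.0783 without Ly6Clo MHCIIlo ko replicate 2, 0.0786 by DESeq2 and 0.205 in the fit of 8 groups. All 4 were higher without Ly6Chi MHCIIlo ctrl replicate 1, and 0 without Ly6Clo MHCIIlo ko replicate 2. Igkc, an antibody light chain, did not pass (-1.15, adjusted p = 0.302), with a log2 fold change between -3.17 (adjusted p = 0.00345, without Ly6Clo MHCIIlo ctrl replicate 2) and -0.21 (without Ly6Chi MHCIIlo ko replicate 1) when 1 library was left out. The B cell genes Cd79a and Ms4a1 were at 0 in all 16 libraries. Of 13 dendritic cell genes only Itgax passed the count filter, the integrin CD11c that macrophages share, and it was higher at medians of 311 CPM in Ly6Clo MHCIIlo and 102 CPM in Ly6Chi MHCIIlo libraries (1.52, SE 0.16, adjusted p = 3.97e-08). Xcr1, which marks cross-presenting dendritic cells, was at 0 in all 16 libraries. The summed level of T cell genes stayed at or under 93.5 CPM in Ly6Clo MHCIIlo and 129 CPM in Ly6Chi MHCIIlo libraries, and that of NK cell genes at or under 129 CPM in Ly6Clo MHCIIlo and 50.1 CPM in Ly6Chi MHCIIlo libraries. Endothelial (23.5 to 51.7 CPM in Ly6Clo MHCIIlo, 3.70 to 49.1 CPM in Ly6Chi MHCIIlo) and platelet genes (5.74 to 23.5 CPM in Ly6Clo MHCIIlo, 0 to 13.4 CPM in Ly6Chi MHCIIlo) had no tested member.

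**Figure D4:**
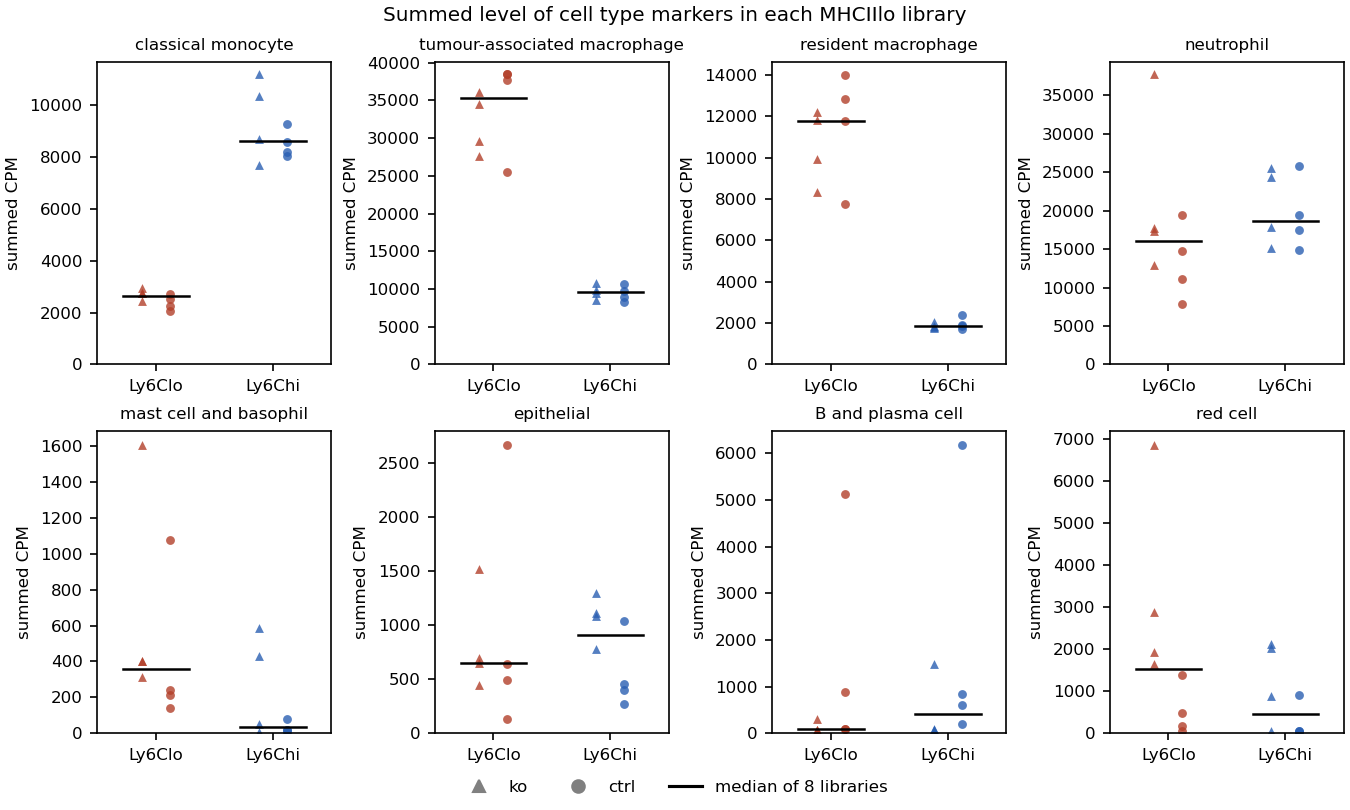
Summed level (CPM, vertical axes from 0) of 8 marker lists in each library, Ly6Clo MHCIIlo at the left and Ly6Chi MHCIIlo at the right of each panel, triangles for ko and circles for ctrl, with a bar at the median of 8. The monocyte and macrophage sums separate the populations without overlap, while the neutrophil, epithelial, B and plasma cell and red cell sums overlap, with Ly6Clo MHCIIlo ko replicate 3 at 37759 CPM in the neutrophil panel.

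The difference between the populations was then compared between genotypes. By edgeR's interaction test 0 of 3417 genes (0%) passed, with 174 at an unadjusted p under 0.05 and a smallest adjusted p of 0.765, and DESeq2 called 0. In ko libraries alone 872 genes were called and in ctrl libraries alone 767. Of the 1352 genes called over all libraries, 1294 were tested in each genotype alone, and 1292 of these had the same sign in both. The calls were made on the same libraries, so a shared sign was favoured by the choice of genes. The count is therefore no separate evidence that the genotypes are alike, and no share over all tested genes is given beside it. C1qc, Ly6c2 and Apoe are calls of that test too, and the naming rule for C1qc and Ly6c2 asked for the same sign in both genotypes. On the log2 fold scale, C1qc stood at 4.03 in ko and 3.996 in ctrl libraries, Ly6c2 at -4.49 in ko and -5.001 in ctrl libraries, and Apoe at 2.78 in ko and 2.69 in ctrl libraries. Maf, among the 5 genes with the smallest p on the side lower in ko, did not pass, with 1.01 in ko and 1.97 in ctrl libraries (difference -0.97, adjusted p = 0.84). In these 16 libraries the sample barcode of every ko library held more G and C bases than that of any ctrl library, so genotype and barcode composition cannot be told apart, but genotype is balanced between the populations.

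The same Ly6C difference could be read among MHCIIhi cells, from 24 Ly6Clo MHCIIhi and 8 Ly6Chi MHCIIhi libraries of the same labelled genotypes, treatment and day, and the contrasts share no samples. Libraries with the same replicate number were added together, which left 16 Ly6Clo MHCIIhi samples, and 1 Ly6Chi MHCIIhi library (ctrl replicate 2) with under 0.1 of the median total was left out, which left 7. In 1 fit of all 8 groups, 268 of 6032 genes (4.44%) differed between the contrasts, 123 with a higher (2.04%) and 145 with a lower (2.4%) log2 fold change among MHCIIlo cells. With DESeq2 size factors the split was 158 higher and 92 lower. In that fit 1917 genes were called among MHCIIlo and 814 among MHCIIhi cells, 568 of them in both with the same sign and 9 in both with opposite signs, and 1648 of the 1917 had the same sign among MHCIIhi cells. Leaving out Ly6Chi MHCIIhi ctrl replicate 4 raised the lower genes to 318.

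Genes of tumour macrophages and complement had the higher log2 folds among MHCIIlo cells. Spp1 averaged 1670 CPM in Ly6Clo MHCIIlo and 354 CPM in Ly6Chi MHCIIlo cells, and 594 CPM in Ly6Clo MHCIIhi and 741 CPM in Ly6Chi MHCIIhi cells. The log2 fold changes were 2.24 among MHCIIlo and -0.38 among MHCIIhi cells, a difference of 2.62 (SE 0.29, adjusted p = 1.49e-07), so Spp1 was higher on the Ly6Clo side among MHCIIlo cells and did not pass among MHCIIhi cells. Mmp12 averaged 1267 CPM in Ly6Clo MHCIIlo and 95.0 CPM in Ly6Chi MHCIIlo cells, and 579 CPM in Ly6Clo MHCIIhi and 246 CPM in Ly6Chi MHCIIhi cells (difference 2.62, SE 0.42, adjusted p = 0.000151). C1qc was higher on the Ly6Clo side of both, at 3.96 among MHCIIlo and 2.17 among MHCIIhi cells (difference 1.79, SE 0.26, adjusted p = 4.28e-05). It averaged 2290 CPM in Ly6Clo MHCIIlo and 2606 CPM in Ly6Clo MHCIIhi cells. On the Ly6Chi side it averaged 148 CPM in MHCIIlo and 558 CPM in MHCIIhi cells. For C1qc the higher fold thus went with a lower Ly6Chi MHCIIlo level, not with a higher Ly6Clo MHCIIlo level. Mif (1.45, SE 0.20) and Rgs1, a brake on G protein signalling (1.54, SE 0.23), also had higher folds among MHCIIlo cells. Rgs1 averaged 658 CPM in Ly6Clo MHCIIlo and 628 CPM in Ly6Clo MHCIIhi cells, against 87.2 CPM in Ly6Chi MHCIIlo and 249 CPM in Ly6Chi MHCIIhi cells. Of 13 tested tumour macrophage genes 8 had a higher and 0 a lower fold among MHCIIlo cells, and of 13 classical monocyte genes 0 had a higher and 4 a lower one. The tumour macrophage sum had medians of 34956 CPM in Ly6Clo MHCIIlo and 32668 CPM in Ly6Clo MHCIIhi samples. Its medians were 9813 CPM in Ly6Chi MHCIIlo and 14012.5 CPM in Ly6Chi MHCIIhi samples.

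Lower log2 folds among MHCIIlo cells were found for Napsa, an aspartic protease, at -2.42 among MHCIIlo and -0.57 among MHCIIhi cells (difference -1.85, SE 0.24, adjusted p = 5.2e-06). Khk, the fructose kinase, averaged 13.7 CPM in Ly6Clo MHCIIlo and 53.3 CPM in Ly6Chi MHCIIlo cells, and 35.5 CPM in Ly6Clo MHCIIhi and 12.3 CPM in Ly6Chi MHCIIhi cells (difference -3.19, SE 0.51, adjusted p = 0.000151). Without Ly6Chi MHCIIhi ctrl replicate 4 the difference for Khk was -5.72. Clec4a3, an inhibitory lectin of myeloid cells, likewise stood on opposite sides, at -1.60 among MHCIIlo and 0.87 among MHCIIhi cells, as did Nrros at -0.74 among MHCIIlo and 0.48 among MHCIIhi cells. Tspan13, a tetraspanin, was at -1.73 among MHCIIlo and 0.03 among MHCIIhi cells. In ctrl groups alone, with fewer samples, the adjusted p was 0.0685 for Mif, 0.0637 for C1qc, 0.111 for Mmp12, 0.0626 for Khk, 0.0713 for Clec4a3 and 0.0898 for Nrros, and in ko groups alone it was 0.0671 for Tspan13.

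Neutrophil and haemoglobin genes are read separately in this comparison. Of 21 tested neutrophil genes 8 had a higher fold among MHCIIlo cells, and their sum ran from 7738 to 37349 CPM in Ly6Clo MHCIIlo, 15273 to 26067 CPM in Ly6Chi MHCIIlo, 1687 to 9623 CPM in Ly6Clo MHCIIhi and 4552 to 84270 CPM in Ly6Chi MHCIIhi libraries. The highest value was that of Ly6Chi MHCIIhi ctrl replicate 1, whose haemoglobin sum was 300198 CPM. Without that library the difference for S100a9 was 0.85 (adjusted p = 0.585), against 4.04 with it, and that for Hbb-bt was 1.03 (adjusted p = 0.712), against 4.87 with it. S100a8, Retnlg and Ngp also lost the call without that library. Hdc (2.57, adjusted p = 0.000491) and Mmp9 (1.85, adjusted p = 0.0228) kept it, as did Spp1 (2.77), Mmp12 (2.65) and C1qc (1.87). Mmp9 lost it without Ly6Chi MHCIIhi ctrl replicate 4 (adjusted p = 0.0651). Hdc is not particular to neutrophils. The mast cell and basophil list (6 tested, 0 differing) had median log2 folds of 2.77 among MHCIIlo and 0.41 among MHCIIhi cells. Which cells the Hdc transcripts came from was not tested.

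**Figure D5:**
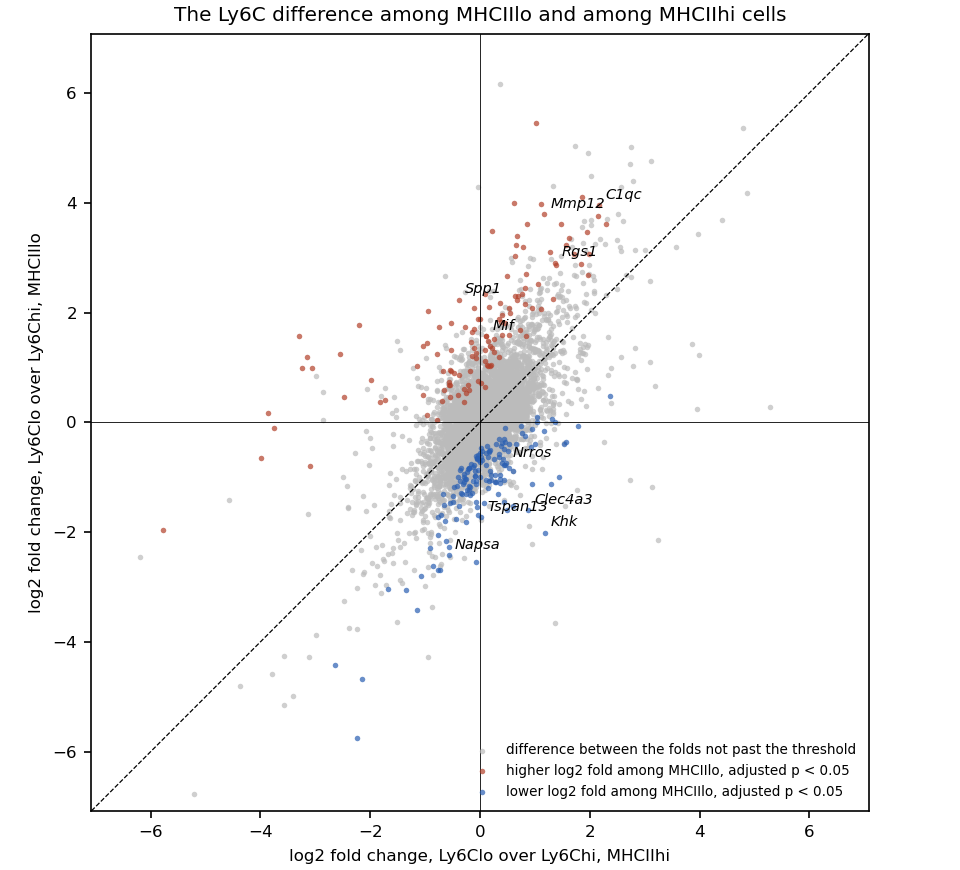
Log2 fold change of Ly6Clo over Ly6Chi cells among MHCIIlo cells (vertical axis) against that among MHCIIhi cells (horizontal axis) for 6032 genes, with a dashed line where both are equal. The 123 red genes lie above the line with a higher fold among MHCIIlo cells, Spp1 and Mmp12 among them, and the 145 blue genes, Khk and Napsa among them, lie below it.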

How the data were processed

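Bulk 3′ sequencing of poly(A) RNA gave 1 deposited table of raw counts per gene, whole numbers of 24538 rows over the 48 libraries. Build GRCm38, R 3.4.4 and DESeq2 1.18.1 are named per the submitters' processing notes, and the aligner, the annotation and whether counts are reads or molecules are not given in the sources used. A row that names no gene (127 counts, 0.000967% of all) was left out. Genes were filtered with filterByExpr (minimum count 10, minimum total 15) and tested with edgeR 4.0.16 in R 4.3.3 (TMM, quasi-likelihood F test, genotype as covariate, Benjamini-Hochberg adjustment), which was also checked on simulated data. DESeq2 1.42.0 served as an alternative. RefSeq gave positions for 3227 of the 3417 tested rows.

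Named genes were up to 12 per direction with the largest log2 fold change among calls of at least 50 CPM in the higher population and with 1 sign in both genotypes, the genes of the sort, and per list up to 5 members called per direction with the smallest p and up to 2 others of highest level. Members and lists were chosen with earlier results of these data known. Results for a few genes are not reported here.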

Additional observations from a re-analysis of the deposited data

Results flagged for a closer look

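Of 280 sets of 8 libraries (1 gene in 1 population), 40 held a library whose gap to the nearest other, over the whole range, exceeded Dixon's 95% critical value. For independent, normally distributed values chance alone flags about 1 set in 20. Whether these CPM are so distributed was not tested, and the sets share libraries, so no excess over chance is shown. Levels in CPM follow by library. In Ly6Clo MHCIIlo ko libraries, replicate 1 was high for Timp1 (333) and Ifi27l2a (477), replicate 2 for Lrp1 (899.8) and Hbb-bt (1028), and replicate 3 for the neutrophil genes Retnlg (4532), S100a8 (9802) and S100a9 (14351). In Ly6Clo MHCIIlo ctrl libraries, replicate 1 was high for C3ar1 (268) and Ccl8 (161), replicate 3 for Lyz1 (137) and replicate 4 for Spp1 (2556). Replicate 2 of that group was high for Cebpb (2086) and Igkc (4272) and low for Fabp5 (63.9) and Aldoa (1433).

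In Ly6Chi MHCIIlo ko libraries, replicate 1 was high for Col14a1 (17.96), replicate 2 for Ccl24 (2981) and Itgax (187), and replicate 4 for Chil3 (1952) and Retnlg (2013). Replicate 3 was high for Plac8 (4981), Timp1 (2324), Ltb4r1 (2271), Ccl12 (55.6), Zbp1 (579) and Slpi (9514). In Ly6Chi MHCIIlo ctrl libraries, replicate 1 was high for Mfge8 (191), Mmp2 (25.4), Apoe (5112) and Ccl8 (66.8), replicate 2 for Egr1 (456) and replicate 4 for Scarb1 (115) and Igkc (5020). Replicate 3 was high for Abca1 (208), Soat1 (467), Ptgs2 (1391), Cxcr4 (386), C5ar1 (306), Mmp13 (94.1) and Runx1 (356). For Ly6Clo MHCIIlo ko replicate 3 the neutrophil marker sum was also the highest of the 16 libraries.

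Other genes had log2 fold changes (Ly6Clo over Ly6Chi) that differed between MHCIIlo and MHCIIhi cells by edgeR's test of the difference, which is given here as MHCIIlo minus MHCIIhi. Among macrophage, complement and tumour macrophage genes these were C1qa (1.62), C1qb (1.53), C1qc (1.79), Spp1 (2.62), Gpnmb (3.38), Mmp12 (2.62), Apoe (0.72), Cd63 (1.05), Ms4a7 (1.30) and Tmem119 (1.49). For uptake, lysosome and matrix genes they were Mfge8 (2.25), Axl (1.74), Cd36 (3.27), Clec4n (1.35), Scarb1 (-2.09), Ctsd (0.97), Ctsl (0.74), Npc2 (-0.67), Soat1 (-0.79), Timp2 (1.36) and Mmp9 (1.88). For monocyte and interferon genes they were Ccr2 (-1.39), F13a1 (-1.78), Ms4a4c (-2.26), S100a4 (-1.72), Dmkn (-3.50), Adora2b (-1.38), Ifi27l2a (-1.71), Ifitm3 (-1.54) and Ly6e (-0.85). For transcription factor, immediate early and chemokine genes they were Klf4 (-0.89), Dusp1 (-0.67), Fos (-0.97), Ccl2 (-1.64) and Cxcl14 (2.18). For metabolic and ribosomal genes they were Mif (1.45), Aldoa (0.68), Blvrb (1.19), Ndufa4 (-1.04), Rps9 (-0.65) and Rplp0 (-0.49). For the remaining genes they were Rgs1 (1.54), Napsa (-1.85), Khk (-3.19), Tspan13 (-1.76), Clec4a3 (-2.48), Nrros (-1.22) and Hdc (2.76). The differences for S100a8 (3.66), S100a9 (4.04), Retnlg (4.23), Ngp (3.80) and Hbb-bt (4.87) were not past the threshold without Ly6Chi MHCIIhi ctrl replicate 1. Without that library 254 genes were called in all, 198 of them among the 268 called with it. Of the other genes listed here, only C1qc, Spp1, Mmp12, Mmp9, Mif, Rgs1, Napsa, Khk, Tspan13, Clec4a3, Nrros and Hdc were read singly without it.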

How the results depend on the processing

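Ly6Clo MHCIIlo against Ly6Chi MHCIIlo gave 952 genes higher with no count filter, 984 higher with all 8 groups in 1 fit, 357 higher and 410 lower in ctrl libraries alone and 445 lower in ko libraries alone, where fewer samples enter. Leaving out each library in turn gave 566 to 685 genes higher and 654 to 719 lower. The test by genotype gave 3 genes higher and 10 lower with no count filter, and 0 to 0 when each library was left out. The comparison by MHC class II level gave 211 genes higher by the DESeq2 test, 92 lower with DESeq2 size factors, 248 lower with no count filter, 15 higher and 5 lower in ctrl groups alone and 43 higher and 23 lower in ko groups alone. Leaving out each sample in turn gave 94 to 152 higher and 117 to 318 lower there, and without Ly6Chi MHCIIhi ctrl replicate 1 the difference for Ngp turned to -0.37 (adjusted p = 0.966), the lowest of a range up to 4.43. The cause of the other shifts was not tested. Over 157 gene results, 4325 alternatives kept the side of the threshold, 107 lost the call and 20 gained it. In 1 alternative the sign turned where either fit passed. The 4325 include alternatives whose sign turned where neither fit passed, as for S100a8, at -0.26 to 0.12 with each library left out.

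Replicate numbers are not said to mark animals, and correlations of same-numbered samples exceeded 0.1 in 3 of 8 pairs (-0.0117 to 0.305), with 5 of 8 Ly6Clo MHCIIlo libraries closest to their own number. With the replicate block 633 genes were higher and 732 lower, 1303 of these 1365 among the 1352 called without it, and the test by genotype gave 0. At 139098 to 388815 counts a library, 3417 of 24538 rows passed the count filter, and differences of the others could not be tested.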

Other observations

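Genes outside the lists were chosen here after their values were seen. Ms4a7, a membrane protein of macrophages, had 363 to 724 CPM (median 608) in Ly6Clo MHCIIlo libraries, against 10.1 to 89.0 CPM (median 44.3) in Ly6Chi MHCIIlo libraries (log2 fold change 3.65, SE 0.27, adjusted p = 1.22e-10). Tmem119, best known as a microglia marker, had 93.9 to 200.1 CPM (median 139) in Ly6Clo MHCIIlo libraries, against 6.55 to 38.2 CPM (median 20.1) in Ly6Chi MHCIIlo libraries (2.90, adjusted p = 8.9e-10). Cd72 (3.38), Rgs1 (2.95) and the chemokine Cxcl14 (2.71) were also higher without overlap of the libraries. On the other side, S100a4, a calcium-binding protein of migrating cells, had 122 to 227 CPM (median 178) in Ly6Clo MHCIIlo libraries, against 884 to 1440 CPM (median 1161) in Ly6Chi MHCIIlo libraries (-2.74, adjusted p = 4.06e-13). Hp, haptoglobin (-2.01), the scaffold protein Ahnak (-1.97), Alox5ap, which serves leukotriene synthesis (-1.54), and the granule proteoglycan Srgn (-1.46) were lower without overlap.

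Marker sums of cells outside the comparison varied between libraries, and those of eosinophil genes did not overlap between the populations. Eosinophil genes, none of which passed the count filter, summed to 33.3 to 179 CPM in Ly6Clo MHCIIlo libraries and 3.70 to 32.2 CPM in Ly6Chi MHCIIlo libraries. Mast cell and basophil genes summed to 142 to 1603 CPM (median 357) in Ly6Clo MHCIIlo and 3.36 to 588 CPM (median 36.3) in Ly6Chi MHCIIlo libraries. Cell cycle genes summed to 255 to 520.2 CPM (median 394) in Ly6Clo MHCIIlo and 101 to 325 CPM (median 168) in Ly6Chi MHCIIlo libraries, and Cenpa, the single member tested, did not pass. These sums were not tested.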
